A study of Mus musculus with 12 samples.

Results

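The genes described here are Ehmt2, which encodes the histone methyltransferase G9a, and 8 other enzymes that write or remove repressive marks on histone H3, measured in mouse somatosensory cortex after ethanol exposure. They were found by gene symbol and are 9 of the 24452 symbols in the deposited tables, with 21 RefSeq transcripts among them. Of the 9, 7 are methyltransferases (Ehmt1, Ehmt2, Suv39h1, Suv39h2, Setdb1, Ezh1 and Ezh2). Kdm6b and Kdm4a are demethylases, which take such marks off, so the set as a whole is not one of methyltransferases. Stranded RNA-Seq was performed on 12 libraries, 3 in each of 4 groups: wildtype (WT) or p53 knockout (KO) mice, injected intraperitoneally with saline or ethanol. All mice were C57BL/6 pups labelled as male, and the cortex was taken on postnatal day 7, 8 hours after the last injection. The KO mice carry a germline targeted disruption of Trp53 (p53) in every cell type, and the WT mice were offspring of the same heterozygous matings. The question put to these genes was whether ethanol, the loss of p53 or both together altered their RNA.

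Methylation of lysine 9 of histone H3 (H3K9) and of lysine 27 (H3K27) marks silent chromatin. G9a and its partner GLP, the product of Ehmt1, act as a heterodimer that writes mono- and dimethylation of H3K9, while Suv39h1, Suv39h2 and Setdb1 write trimethylation of that residue, the first pair mainly at pericentric heterochromatin and Setdb1 at retroelements and other targets of KRAB zinc finger proteins. Ezh1 and Ezh2 are the alternative catalytic subunits of Polycomb repressive complex 2 (PRC2), which methylates H3K27; Ezh2 is typical of dividing cells and Ezh1 of cells that have left the cycle. Kdm6b (JMJD3) removes H3K27 methylation, and Kdm4a (JMJD2A) removes it from H3K9 and H3K36.

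In the mm10 (GRCm38) annotation of the files, Ehmt2 lies at chr17:34898492-34914050 on the plus strand, and its 4 transcripts have 2 start positions, differ in whether they hold one internal coding exon, and differ by further bases elsewhere. That exon, at chr17:34905610-34905711, is 102 bases or 34 whole codons long, so the reading frame is kept with or without it. It is exon 10 of NM_001286575 and exon 9 of NM_145830, and is absent from NM_147151 and NM_001286573. It is shown because the division of the Ehmt2 count between these forms is a result below, with the exon in capitals and 20 bases of each neighbouring exon in lower case, taken from the GENCODE transcripts of GRCm38.
Ehmt2 alternative exon: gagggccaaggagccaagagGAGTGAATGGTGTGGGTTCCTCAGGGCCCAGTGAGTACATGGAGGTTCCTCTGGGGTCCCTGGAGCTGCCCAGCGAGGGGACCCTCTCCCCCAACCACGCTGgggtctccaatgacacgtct

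Ehmt2 has 2 start sites in RefSeq (GRCm38.p6), and Ehmt1, on chromosome 2, has 1. The windows from 250 bases before each start are shown for this pair of partner genes, 300 bases each and read 5′ to 3′ on the strand of the gene. They lie at chr17:34898224-34898523 and chr17:34898720-34899019 for Ehmt2 and at chr2:24919560-24919859 on the minus strand for Ehmt1. Capitals mark 3 motifs on either strand: GGGCGG is the GC box, the letters CCAAT are the CCAAT box, and the E-box was searched as CACGTG.
Ehmt2 upstream start: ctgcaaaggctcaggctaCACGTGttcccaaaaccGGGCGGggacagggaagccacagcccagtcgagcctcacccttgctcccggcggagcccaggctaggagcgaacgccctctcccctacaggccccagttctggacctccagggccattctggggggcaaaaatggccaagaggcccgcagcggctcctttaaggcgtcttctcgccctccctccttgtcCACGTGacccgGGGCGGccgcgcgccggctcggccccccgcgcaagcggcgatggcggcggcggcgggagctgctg
Ehmt2 downstream start: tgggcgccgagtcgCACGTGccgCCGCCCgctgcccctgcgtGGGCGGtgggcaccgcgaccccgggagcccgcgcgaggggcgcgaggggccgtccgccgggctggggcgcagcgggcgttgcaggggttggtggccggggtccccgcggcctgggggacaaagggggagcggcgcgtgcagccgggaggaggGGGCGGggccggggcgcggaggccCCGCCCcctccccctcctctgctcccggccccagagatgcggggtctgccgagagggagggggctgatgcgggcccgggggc
Ehmt1 start: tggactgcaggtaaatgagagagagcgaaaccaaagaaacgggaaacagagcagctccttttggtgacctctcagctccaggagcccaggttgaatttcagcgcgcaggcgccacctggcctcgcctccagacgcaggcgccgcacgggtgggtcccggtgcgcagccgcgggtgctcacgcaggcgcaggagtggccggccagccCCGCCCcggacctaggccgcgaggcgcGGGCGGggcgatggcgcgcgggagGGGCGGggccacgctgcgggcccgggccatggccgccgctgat

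Both Ehmt2 windows were rich in G and C (70.3% and 82.7%), and held GGGCGG at 2 and 4 places and CACGTG at 2 and 1 places. The Ehmt1 window had GGGCGG at 3 places and no CACGTG. Of all 32817 promoter windows of this length, 35.6% held GGGCGG and 7.15% held CACGTG. Windows were found for 8 of the 9 genes, 10 windows in all, of which 7 held GGGCGG, 4 held CCAAT (37.4% of all windows) and none held TATAAA (13.6% of all windows). The E2F-type motif TTTNNCGC lay in an Ezh2 and in a Suv39h1 window (5.16% of all windows). The p53 half-site was searched by its consensus and found in 1 of the 10, one of both Suv39h1 windows, against 8.36% of all windows. No 2 of the motifs searched overlapped in these windows.

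Library totals ran from 719735 to 17066392 estimated counts. Libraries KO ethanol 12 (719735) and WT saline 3 (1953154) were the shallowest, and are the only ones whose names open with L. In KO ethanol 12 the 9 genes had between 0 and 91 counts each. WT saline 1, WT saline 13 and KO ethanol 12 had 9.74% to 12.8% of their counts in 20 genes (4.81% to 7.12% in the others), and had lower values for long transcripts: the median deviation of the genes with the longest transcripts (the top 25% by length) from the mean of the libraries was -0.48, -0.38 and -0.58 on the log2 scale there, against -0.07 to 0.45 in the others. Most of the genes described here have long transcripts, up to 6654 bases (Kdm6b) and 5953 bases (Ehmt1). In 2 of the 3 WT ethanol libraries, 4 and 14, the data went against the male label: Xist had 15369 and 10016 counts, against at most 26.0 in the 10 other libraries, and the Y-linked genes Ddx3y, Eif2s3y, Uty and Kdm5d had 0 counts. The log2 fold changes of the 9 genes and the list counts with WT ethanol are therefore also given without those libraries. Summed counts of Trp53 itself include the part of the gene outside the deletion and so do not check the genotype. They overlapped under saline, at 3.67 to 26.2 depth-scaled counts (CPM) in WT and 11.1 to 27.6 in KO mice, and after ethanol they were higher in KO (23.4 to 28.7 CPM) than in WT mice (7.23 to 20.02 CPM). The 7 neuronal markers counted (Tubb3, Rbfox3, Snap25, Syt1, Slc17a7, Gad1 and Gad2) were detected in every library, which does not check the cortical region sampled.

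Per length, Ehmt2 had the highest level of the 9 genes. The deposited RPKM is reads per kilobase of transcript, here brought to one distribution across libraries and not only scaled to depth. Ehmt2 had a mean of 34.7 ± 11.6 RPKM (SD, n = 12), and was above Kdm4a, the next in order, in all 12 libraries. Kdm4a (12.2 ± 4.37), Setdb1 (10.8 ± 2.47) and Suv39h1 (10.3 ± 2.11) followed. Kdm4a was above Setdb1, and Setdb1 above Suv39h1, in 8 of 12 libraries each, and these neighbours did not differ beyond their spread (adjusted p = 0.673 for both pairs, exact paired permutation over libraries, 8 neighbouring pairs compared). Ehmt1 came next with 6.62 ± 1.90 RPKM, below Suv39h1 in each of the 12 libraries (adjusted p = 0.00195 by the same exact permutation test). The mean of Ehmt2, the G9a gene, was thus well above that of its partner.

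**Figure D1:**
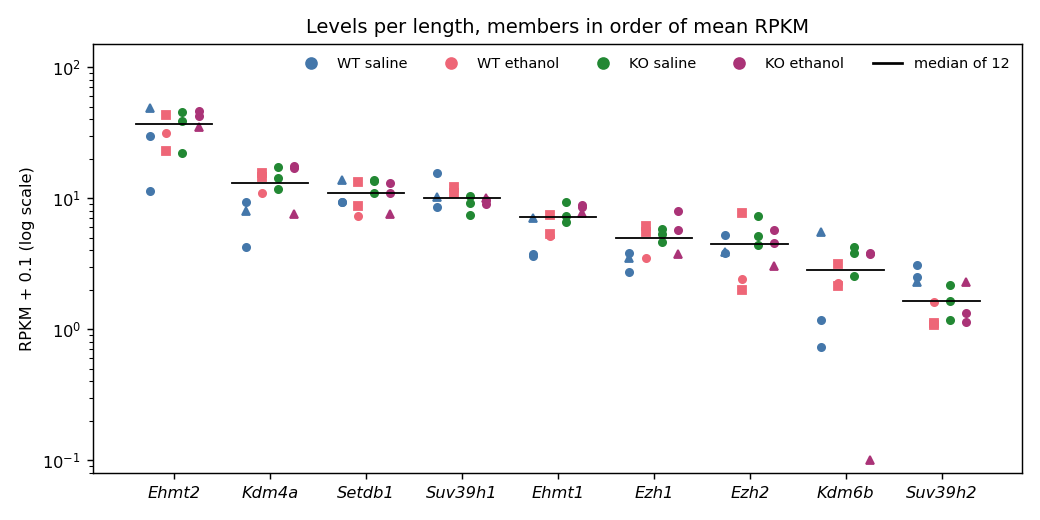
RPKM + 0.1 on a log axis for the 9 genes in order of their mean, with 1 point per library, coloured by group, triangles for the 2 L libraries and squares for the 2 WT ethanol libraries with Xist. Lines are medians of 12 libraries; Ehmt2 lies above the other genes and Kdm6b spreads most widely, down to 0 in KO ethanol 12.

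Among the PRC2 catalytic subunits, Ezh1 (4.77 ± 1.49 RPKM) and Ezh2 (4.50 ± 1.75) were at similar levels, Ezh1 being the higher in 6 of 12 libraries (adjusted p = 0.673, exact paired permutation). Kdm6b (2.67 ± 1.58) and Suv39h2 (1.69 ± 0.668) were lowest and did not differ beyond their spread (adjusted p = 0.673, exact paired permutation). Suv39h1 thus stood well above its paralogue Suv39h2 in this tissue, with no library of Suv39h1 below 7.28 RPKM and none of Suv39h2 above 2.99 RPKM.

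For Ehmt2, normalized counts in the WT saline libraries 1, 3 and 13 were 41.0, 216 and 133 CPM, and in the WT ethanol libraries 4, 5 and 14 they were 179, 139 and 97.1 CPM. The KO saline libraries 7, 8 and 9 had 187, 98.2 and 161 CPM, and the KO ethanol libraries 10, 12 and 18 had 174, 152 and 192 CPM. Both the lowest and the highest of the 12 values were WT saline libraries, and every pair of groups overlapped. The log2 fold change of Ehmt2 was 0.09 ± 0.49 (SE) for WT ethanol versus WT saline, with a 95% interval of -0.95 to 1.13 (edgeR adjusted p = 0.934). It was 0.22 ± 0.49 for KO ethanol versus KO saline (adjusted p = 0.999), and 0.20 ± 0.49 for KO saline versus WT saline (adjusted p = 0.848). The interaction of Genotype and Treatment was 0.13 ± 0.69 (adjusted p = 0.956). Without libraries 4 and 14 the ethanol difference in WT mice was 0.08, and without the 2 L libraries it was 0.60 (adjusted p = 0.363). The intervals of Ehmt2 between groups span about a doubling in either direction, and its interaction has a larger SE. Smaller differences were not detectable with 3 libraries a group, and larger ones could also miss an adjusted p under 0.05 (edgeR).

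Ehmt1 showed a different distribution. Its WT saline values were 14.9, 33.4 and 16.3 CPM and its WT ethanol values 37.9, 28.9 and 43.2 CPM, so that the groups overlapped only through WT saline 3, an L library. KO saline libraries had 57.0, 41.9 and 40.3 CPM, all above WT saline, and KO ethanol libraries had 52.97, 28.4 and 56.0 CPM, the low value being the other L library. The log2 fold change was 0.79 ± 0.40 for WT ethanol versus WT saline (edgeR adjusted p = 0.298), and 1.13 ± 0.40 for KO saline versus WT saline (adjusted p = 0.179).

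**Figure D2:**
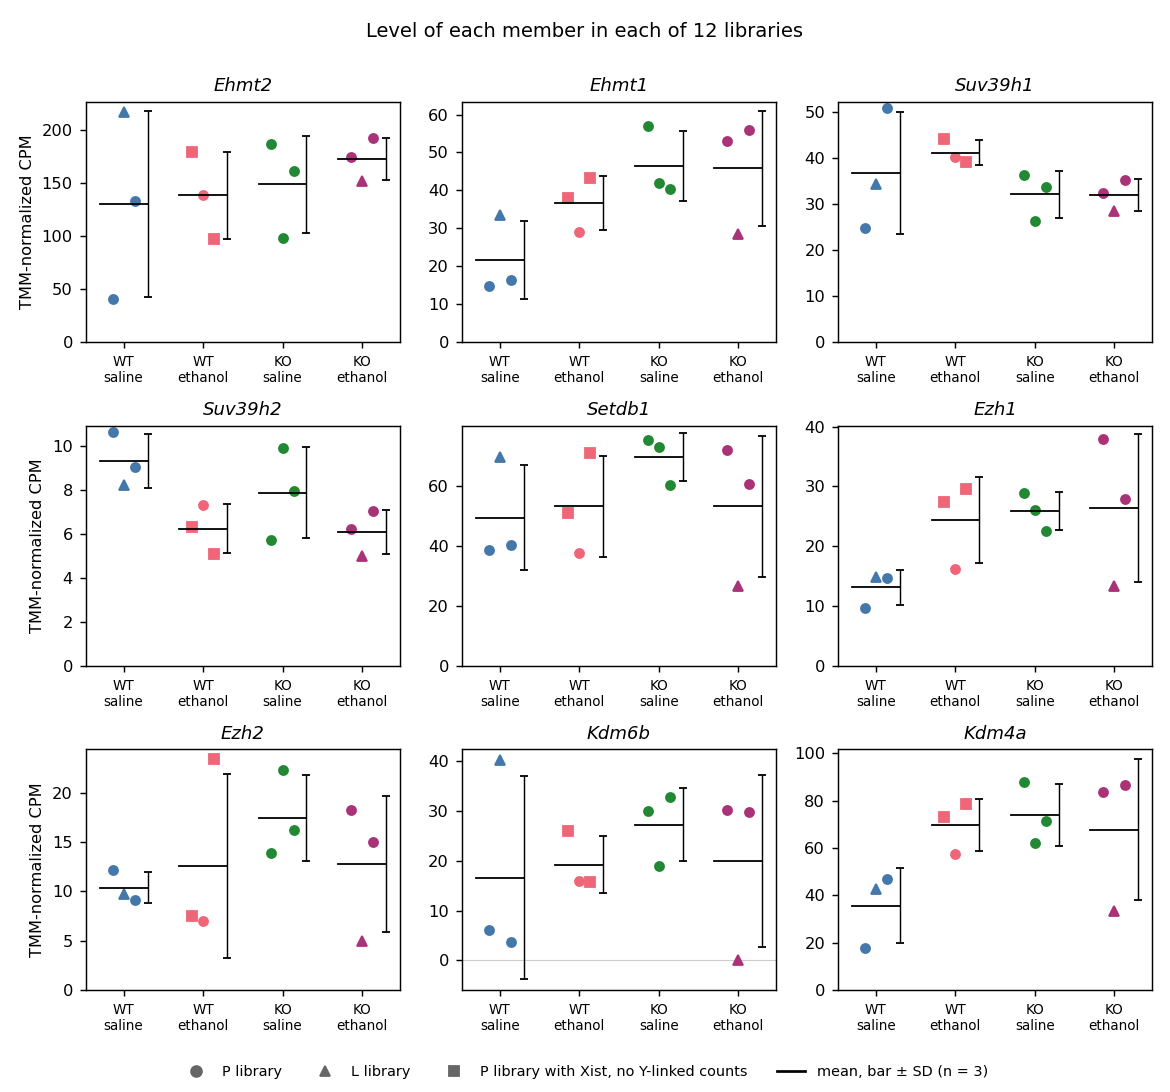
TMM-normalized CPM of each gene (linear axes) in the 4 groups, with 1 point per library, the mean as a line and ± SD as a bar (n = 3). Triangles are the 2 L libraries and squares are the 2 WT ethanol libraries with Xist. By mean CPM 7 of the 9 genes, Ehmt2 among them, are lowest in WT saline, and by mean RPKM 5 are. The share of all genes with that order was not counted, and the groups of Ehmt2 overlap.

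The trimethylating enzymes of H3K9 are Suv39h1, Suv39h2 and Setdb1. Suv39h1, an X-linked gene, had 24.8, 34.4 and 50.9 CPM in WT saline and 44.2, 40.1 and 39.2 CPM in WT ethanol. The libraries with Xist, 4 and 14, lay on either side of library 5, the remaining one of that group. Its KO values were 36.3, 26.3 and 33.7 CPM under saline and 32.4, 28.4 and 35.2 CPM after ethanol. All 3 KO ethanol values lay below all 3 WT ethanol values, as they did for 8.69% of all genes. Suv39h1 was the only one of the 9 genes without overlap in that comparison. Its log2 fold change there was -0.35 ± 0.34 (edgeR adjusted p = 0.982).

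Suv39h2 was the one gene of the set with lower values after ethanol in WT mice in every library: 6.34, 7.32 and 5.09 CPM, against 10.7, 8.23 and 9.06 CPM in WT saline (log2 fold change -0.58 ± 0.40, edgeR adjusted p = 0.443). For 8.3% of all genes WT ethanol likewise lay below WT saline without overlap. Some Suv39h2 counts were low, at 16 in WT saline 3 and 29 in WT ethanol 14. In KO mice it had 5.75, 9.90 and 7.98 CPM under saline and 6.24, 5.01 and 7.04 CPM after ethanol, which overlapped. Setdb1 had 38.6, 69.4 and 40.1 CPM in WT saline, 51.0, 37.6 and 71.0 CPM in WT ethanol, 75.2, 72.7 and 60.3 CPM in KO saline and 71.9, 26.7 and 60.6 CPM in KO ethanol. The highest WT saline value and the lowest KO ethanol value of Setdb1 were again the L libraries. Its log2 fold changes were 0.11 ± 0.40 with ethanol in WT mice and 0.50 ± 0.40 with p53 loss under saline (adjusted p = 0.899 and 0.493).

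Ezh1 and Ezh2 differed in pattern. Ezh1 had 9.74, 14.9 and 14.8 CPM in WT saline and 27.4, 16.2 and 29.5 CPM in WT ethanol, with no overlap, although library 5 was only just above WT saline. It had 29.0, 26.0 and 22.6 CPM in KO saline, again all above WT saline, and 37.9, 13.4 and 27.9 CPM in KO ethanol. The log2 fold changes of Ezh1 were 0.89 ± 0.41 (adjusted p = 0.261) for WT ethanol and 0.98 ± 0.41 (adjusted p = 0.214) for KO saline, each against WT saline. Ezh2 had 12.1, 9.77 and 9.14 CPM in WT saline and 7.47, 6.95 and 23.4 CPM in WT ethanol, a group in which library 14 alone exceeded the saline values. Its KO saline values of 13.9, 22.3 and 16.2 CPM lay above WT saline, with a log2 fold change of 0.76 ± 0.52 (adjusted p = 0.429). KO ethanol libraries had 18.2, 5.01 and 15.0 CPM of Ezh2.

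Of the demethylases, Kdm4a had 17.6, 42.7 and 46.7 CPM in WT saline and 73.0, 57.4 and 78.5 CPM in WT ethanol, without overlap. KO saline libraries had 88.0, 62.1 and 71.6 CPM, also without overlap with WT saline, and KO ethanol libraries had 83.4, 33.4 and 86.5 CPM. The log2 fold changes against WT saline were 0.97 ± 0.42 for WT ethanol (adjusted p = 0.248) and 1.05 ± 0.42 for KO saline (adjusted p = 0.205). Kdm6b depended most on single libraries: it had 6.06, 40.1 and 3.71 CPM in WT saline and 25.9, 16.0 and 15.8 CPM in WT ethanol. It had 30.02, 18.9 and 32.8 CPM in KO saline and 30.2, 0 and 29.7 CPM in KO ethanol. Its highest value was thus WT saline 3 and its lowest KO ethanol 12, where a count of 0 allows up to 5.01 CPM (3 counts, counting error only). With all libraries its log2 fold changes against WT saline were 0.30 ± 0.85 for WT ethanol and 0.80 ± 0.85 for KO saline (adjusted p = 0.874 and 0.620).

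Counted over the set, none of the 9 genes passed an adjusted p under 0.05 (edgeR quasi-likelihood test) in any comparison. For WT ethanol versus WT saline 0.0746% of the 14739 genes tested passed, for KO saline versus WT saline 0.0543% passed, and for both comparisons with KO ethanol and for the interaction 0% passed. DESeq2 also called none of the 9 in any comparison, beside 3.31% of all genes for WT ethanol and 4.86% for KO saline against WT saline, 0.0136% for KO ethanol versus KO saline, 0.0204% for KO ethanol versus WT ethanol and 1.73% for the interaction. At an unadjusted p under 0.05, the WT ethanol comparison had 2 of the 9 (Ezh1 and Kdm4a, both higher; 18.3% of all genes, 9.99% in that direction) and KO saline versus WT saline had 3 (Ehmt1, Ezh1 and Kdm4a, all higher; 19.6%, 9.14% in that direction). The other comparisons had none, against 3.15% of all genes for KO ethanol versus KO saline, 3.24% for KO ethanol versus WT ethanol and 15.2% for the interaction. At the adjusted level of 0.30 used in the study, 3 of 9 passed in WT ethanol versus WT saline (22.5% of all genes) and 3 of 9 in KO saline versus WT saline (25.8%), in both cases Ehmt1, Ezh1 and Kdm4a, all higher (12.1% and 12.4% of all genes in that direction), and none passed in the others (11.1% of all genes for the interaction, 0% for both comparisons with KO ethanol). The comparisons of WT ethanol and of KO saline share the same 3 WT saline libraries and are not independent of each other.

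Groups did not overlap for 3 of the 9 genes in WT ethanol versus WT saline (19.6% of all genes), for 4 in KO saline versus WT saline (22.9%), for none in KO ethanol versus KO saline (10.8%) and for 1 in KO ethanol versus WT ethanol (12.7%). The log2 fold change was above 0 for 8 of the 9 genes in WT ethanol versus WT saline (52.7% of all genes), 7 in KO saline versus WT saline (52.0%), 4 in KO ethanol versus KO saline (50.7%), 7 in KO ethanol versus WT ethanol (47.2%) and 2 for the interaction (45.8%). The median log2 fold change of the set was 0.27 for WT ethanol versus WT saline, beside 0.06 for all genes tested, and 0.76 beside 0.04 for KO saline versus WT saline. For KO ethanol versus KO saline it was -0.09 beside 0.01, with members between -0.35 (Setdb1) and 0.22 (Ehmt2). For KO ethanol versus WT ethanol it was 0.15 beside -0.03, with members between -0.35 (Suv39h1) and 0.35 (Ehmt1). Interaction values had a median of -0.60 beside -0.11 for all genes, and the one with the smallest p was Kdm4a at -1.06 ± 0.59 (edgeR adjusted p = 0.411). In these bulk samples, fewer cells of a type and less RNA per cell cannot be told apart.

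Leaving out the 2 L libraries changed this count, and leaving out WT saline 3 alone gave 2 calls (Ehmt1 and Kdm6b) for KO saline versus WT saline, beside 14.5% of all genes (7.52% in that direction). It gave none for WT ethanol versus WT saline (7.68%), the interaction (0.00667%) or the comparisons with KO ethanol (0%). Without both L libraries, 2 of the 9 genes passed an adjusted p under 0.05 (edgeR) for WT ethanol versus WT saline, beside 21.5% of 14967 genes tested and 10.6% in that direction: Kdm6b rose by 1.92 ± 0.41 on the log2 scale (adjusted p = 0.0111) and Ehmt1 by 1.15 ± 0.31 (adjusted p = 0.0240). For KO saline versus WT saline 3 of 9 passed, beside 25.3% of all genes and 12.0% in that direction: Kdm6b rose by 2.43 ± 0.42 (adjusted p = 0.00454), Ehmt1 by 1.505 ± 0.31 (adjusted p = 0.00734) and Kdm4a by 1.14 ± 0.38 (adjusted p = 0.0476). No gene of the set passed in KO ethanol versus KO saline, KO ethanol versus WT ethanol (0% of all genes in each) or the interaction (0.0668%). WT saline is then libraries 1 and 13 alone, both low in long transcripts. With each library's trends of count with transcript length and GC content also removed, an alternative added after the data had been seen, the log2 fold change of Kdm6b was 0.38 for WT ethanol and 0.89 for KO saline (adjusted p = 0.555 and 0.158), and that of Ehmt1 was 0.57 and 0.93 (adjusted p = 0.147 and 0.0314). Ehmt1 in KO saline versus WT saline was then the 1 call in the set, beside 23.2% of all genes (9.55% in that direction).

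**Figure D3:**
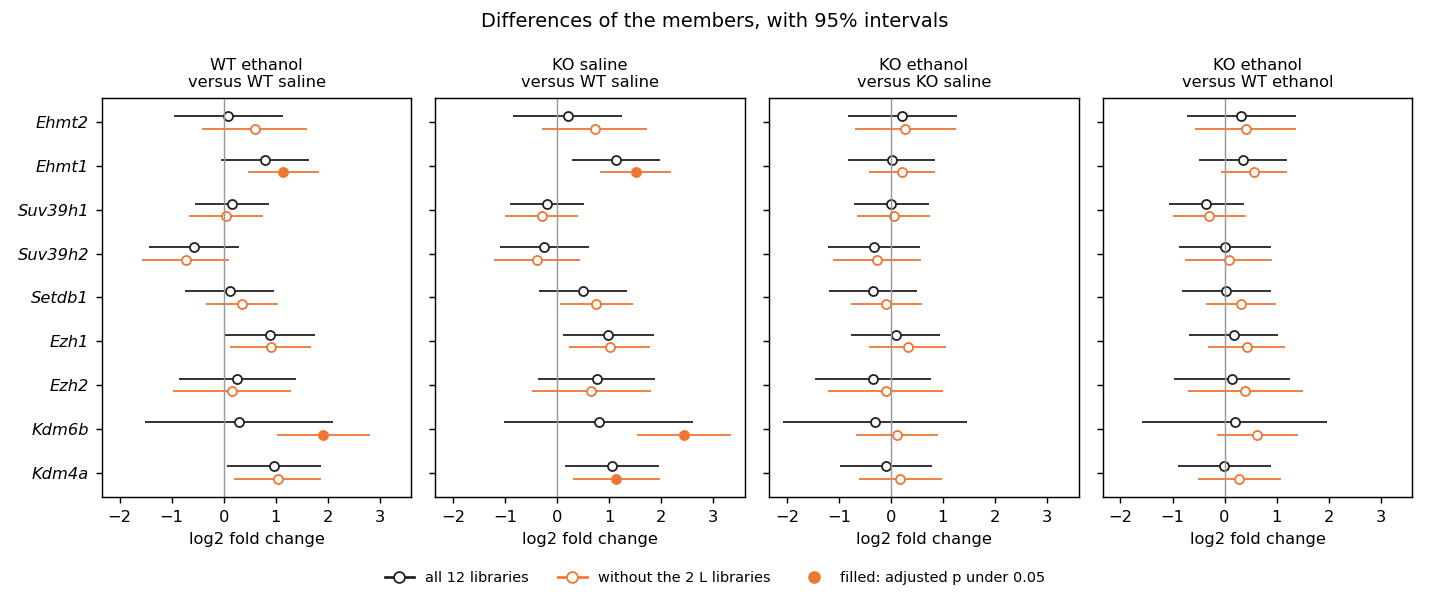
Log2 fold changes of the 9 genes with 95% intervals from edgeR in 4 comparisons, over all 12 libraries (dark) and without the 2 L libraries (orange). Filled points have an adjusted p under 0.05; those are Kdm6b and Ehmt1 in WT ethanol versus WT saline, and Kdm6b, Ehmt1 and Kdm4a in KO saline versus WT saline, in each case without the L libraries only.

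Without the WT ethanol libraries 4 and 14, library 5 is the lone WT ethanol library and is assumed to vary like the others. The log2 fold changes for WT ethanol versus WT saline were then 0.43 for Ehmt1, 0.28 for Ezh1 and 0.67 for Kdm4a, each smaller than with all libraries, and -0.40 for Setdb1 and -0.60 for Ezh2, which had been positive. They were 0.10 for Suv39h1, -0.38 for Suv39h2 and 0.03 for Kdm6b. For KO ethanol versus WT ethanol they ran from -0.29 (Suv39h1) to 1.01 (Ezh2). None of the 9 passed an adjusted p under 0.05 in any comparison, beside 0% of all genes. Without the L libraries as well, 3 of the 9 passed for KO saline versus WT saline, beside 26.2% of all genes and 13.0% in that direction, and none passed for WT ethanol versus WT saline (0.171%). Over all 12 libraries with length and GC trends removed, none passed either (0.0480% of all genes for WT ethanol and 0.0823% for KO saline, each against WT saline), and the smallest adjusted p against WT saline was 0.342 (Ehmt1 in KO saline). Ehmt1 then gave 0.30 for WT ethanol and 0.65 for KO saline, Ezh1 gave 0.43 and 0.55, and Kdm4a gave 0.48 and 0.56. Other features also differed between the libraries. The 6 nuclear-retained RNAs (Malat1, Neat1, Meg3, Xist, Snhg11 and Miat) summed to 256 to 2617 CPM in WT saline, 2195 to 7041 in WT ethanol, 1623 to 10818 in KO saline and 971 to 12468 in KO ethanol, with only Xist at 0 in some libraries. Xist made up 870 and 1759 CPM of the sums in WT ethanol 4 and 14, and at most 2.13 CPM in any other library. The 7 neuronal markers summed to 4740 to 7017 CPM in WT saline, 2876 to 4227 in WT ethanol, 3734 to 3960 in KO saline and 3201 to 6750 in KO ethanol, with none at 0. Among them Tubb3, a neuronal tubulin, was at 2823 to 4693 CPM in WT saline, above its 1136 to 1537 in WT ethanol and 1269 to 1415 in KO saline, while Gad1, which makes the transmitter GABA, was lower in WT saline (74.0 to 94.99 CPM) than in WT ethanol (141 to 172 CPM) and KO saline (106 to 114 CPM). Tubb3 was the largest part of the WT saline sums. Rbfox3, Snap25, Syt1 and Slc17a7 overlapped between WT saline and each of those groups. Gad2 was higher in WT ethanol (104 to 115 CPM) than in WT saline (21.2 to 60.2 CPM), and overlapped between KO saline and WT saline. The 4 choroid plexus markers summed to 3.60 to 119 CPM in WT saline, 22.1 to 4999 in WT ethanol, 27.1 to 2252 in KO saline and 0 to 2209 in KO ethanol, and each was at 0 in some library. The 7 markers of dividing cells summed to 98.7 to 579 CPM in WT saline, and the ranges of WT ethanol (146 to 176), KO saline (108 to 284) and KO ethanol (109 to 130) lay within that. Only Mcm2 was at 0 in some. Pcna was the largest part of the WT saline sums (55.5 to 465 CPM). Top2a was higher in WT ethanol (13.5 to 22.4 CPM) than in WT saline (5.94 to 12.9 CPM), and the other markers of this list overlapped between these groups. The part of all these features in the differences described was not tested.

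The Ehmt2 count was divided by the authors' quantification among 4 transcripts, with NM_001286575 taking a mean of 56.0% and NM_147151 28.2%. Transcripts with the 102-base exon shown above held 42.1%, 32.9% and 78.2% of the Ehmt2 count in WT saline libraries 1, 3 and 13 and 78.3%, 74.8% and 82.0% in WT ethanol. In KO saline they held 81.7%, 84.4% and 81.4%, and in KO ethanol libraries 10, 12 and 18 76.0%, 21.3% and 73.0%. The share was thus between 73.0% and 84.4% in 9 libraries and far lower in WT saline 1, WT saline 3 and KO ethanol 12. KO saline lay above both WT saline and KO ethanol without overlap (p = 0.1 in each, exact two-sided permutation test, the smallest p that 3 libraries against 3 allow; adjusted p = 0.267 over the 8 comparisons of shares). For WT ethanol the exact permutation p was 0.2 against WT saline and 0.2 against KO ethanol. Library 5, the WT ethanol library without Xist, was at 74.8%. The 3 libraries with low shares had 223, 421 and 91 Ehmt2 counts and the others 553 or more, and the part of depth in the shares was not tested.

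**Figure D4:**
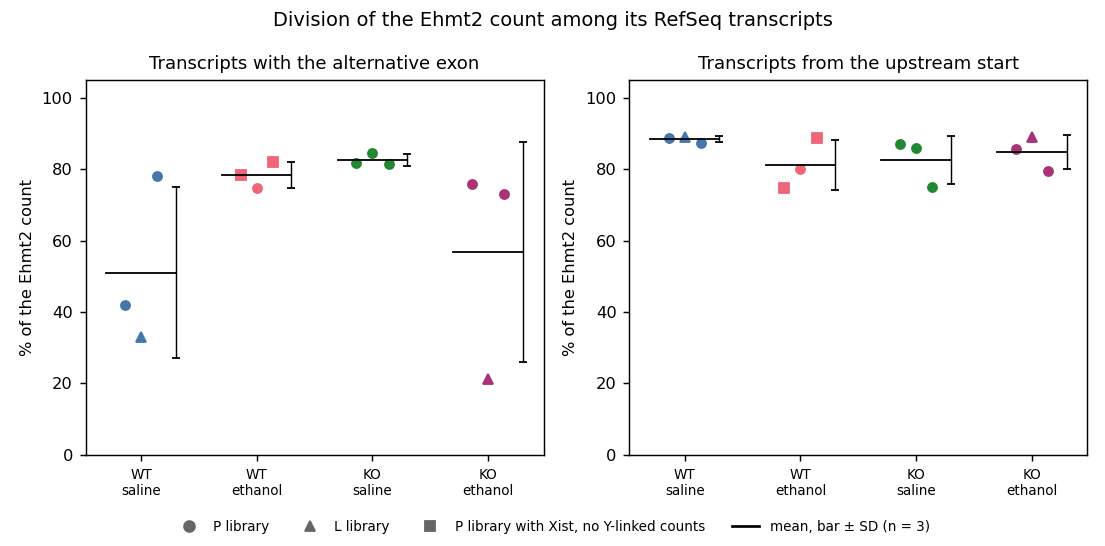
Percent of the Ehmt2 count given to transcripts with the 102-base exon (left) and to transcripts from the upstream start (right), 1 point per library, with the mean and ± SD (n = 3). On the left, 3 points at 42.1%, 32.9% and 21.3% lie apart from the other 9; on the right, all points lie between 74.7% and 88.9%.

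Transcripts from the upstream start of Ehmt2 held 74.7% to 88.9% of the count, and the group means ran from 81.1% in WT ethanol to 88.4% in WT saline (p = 0.1 at the smallest, for KO saline versus WT saline, exact permutation test; adjusted p = 0.267). By RPKM in place of counts the p of that comparison was 0.7. How reads shared between transcripts had been divided can be seen in the other genes. For Setdb1 and for Ezh2, the shares were the same to 3 digits in WT saline 1, WT saline 3 and KO ethanol 12 (24.8% for NM_001163641 of Setdb1 and 55.5% for NM_001146689 of Ezh2). For Suv39h2 they were the same in 6 libraries (15.4% for NM_022724), so in those libraries the split carried no information on the forms. The same held for Trp53, with 7.01% given to NM_001127233 in 4 libraries, KO ethanol 12 among them. Its share was 16.6% to 23.1% in the other WT libraries, 65.7% to 70.6% in KO saline and KO ethanol 10, and 48.3% in KO ethanol 18, so KO ethanol 12 was at the value of WT libraries in a split that carried no information. Of Suv39h1, NM_001290716 had 40.6% to 90.6% of the count, while Kdm4a was nearly all NM_001161823 (99.3% on average) and Ezh1 and Kdm6b have 1 transcript each. The other Suv39h2 transcript, NR_027509, is a non-coding RefSeq record. It was given 64.6% of the Suv39h2 count on average, so the summed levels of Suv39h2 include it.

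Other parts of the same machinery were counted as lists. Of 13 genes for H3K9 methylation complexes and readers, 4 were higher in WT ethanol than in WT saline at an unadjusted p under 0.05 and none lower (9.99% and 8.36% of all genes), with a median log2 fold change of 0.49. In KO saline versus WT saline 6 of 13 were higher and none lower (9.14% and 10.5% of all genes), with a median of 1.00. The smallest p-values belonged to Fam208a, a subunit of the HUSH silencing complex (1.43 ± 0.44 for WT ethanol and 1.92 ± 0.45 for KO saline), to Atf7ip, a cofactor of Setdb1 (1.10 ± 0.36 and 1.00 ± 0.35), and to Cbx1, a heterochromatin protein that binds methylated H3K9 (1.21 ± 0.48 and 1.46 ± 0.48). None passed an adjusted p under 0.05 in edgeR.

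The 9 further PRC2 subunits had none at an unadjusted p under 0.05 in either comparison (18.3% and 19.6% of all genes) and medians of 0.37 and 0.36. Their members went both ways: the histone-binding subunit Rbbp4 had -0.94 ± 0.46 and -0.93 ± 0.46, while the accessory subunit Jarid2 had 1.01 ± 0.55 in WT ethanol. Of 17 PRC1 subunits, 2 were higher in each comparison (9.99% and 9.14% of all genes) and none lower, with medians of 0.23 and 0.10. Phc3, a Polyhomeotic homologue, had 1.03 ± 0.43 and 1.12 ± 0.43. Of 12 further demethylases of H3K9 and H3K27, 4 were higher in WT ethanol and 2 in KO saline, beside the same shares of all genes. Their medians were 0.78 and 0.68, and the H3K9 demethylase Kdm3a had 0.88 ± 0.35 in WT ethanol.

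Enzymes that write other histone marks were counted in the same way. Of 16 methyltransferases of H3K4, H3K36 and H3K79, 4 were higher in WT ethanol and 6 in KO saline (9.99% and 9.14% of all genes). None was lower (8.36% and 10.5% of all genes), and the medians were 0.74 and 0.95. The H3K79 methyltransferase Dot1l had 2.95 ± 0.80 and 3.40 ± 0.81, and Ash1l and the H3K36 methyltransferase Setd2 had 1.53 ± 0.39 and 1.27 ± 0.39 in WT ethanol. No gene of the 5 lists passed an adjusted p under 0.05 in any comparison with all 12 libraries. Without the 2 L libraries, 6 and 7 of the 13 H3K9 complex genes, 9 and 11 of the 16 other methyltransferases and 3 and 4 of the 12 demethylases rose at an adjusted p under 0.05 (edgeR) in WT ethanol and in KO saline, beside 10.6% and 12.0% of all genes. In the same fits 3 and 4 of the 17 PRC1 subunits rose, and of the 9 PRC2 subunits 1 rose and 1 fell in each (11% and 13.3% of all genes fell). No list member passed in KO ethanol versus KO saline. In these fits WT saline was libraries 1 and 13 alone, both low in long transcripts. The part of transcript length in the list counts was not tested. Without the WT ethanol libraries 4 and 14, no gene of the 5 lists was at an unadjusted p under 0.05 for WT ethanol versus WT saline, beside 3.01% of all genes higher and 1.05% lower. The demethylase list holds the Y-linked Uty, which is at 0 in those libraries.

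**Figure D5:**
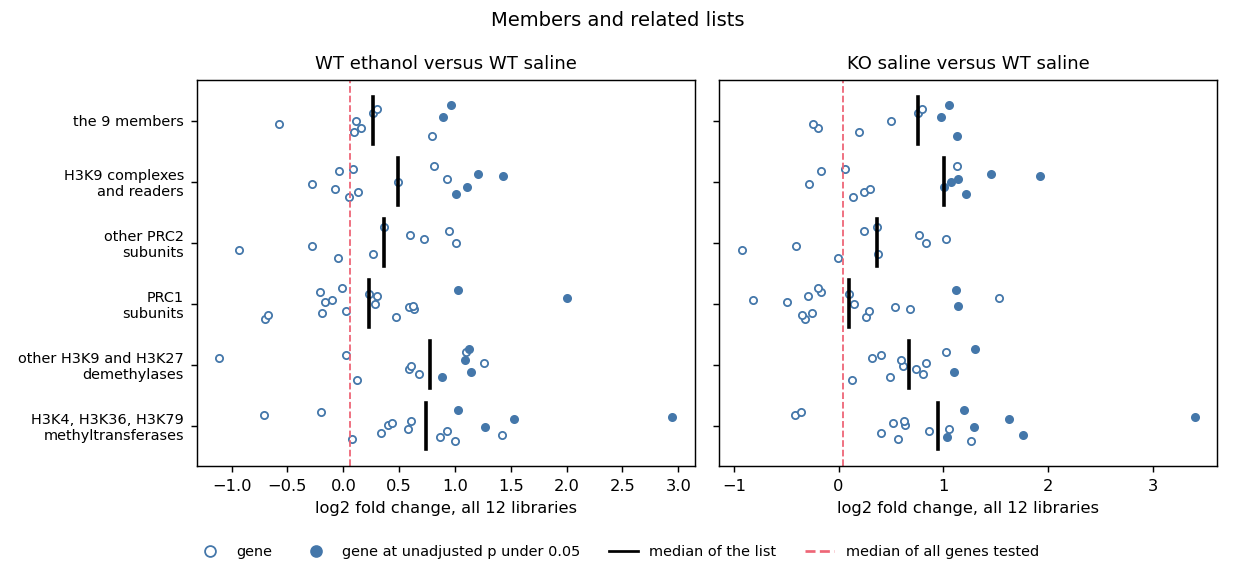
Log2 fold changes over all 12 libraries for the 9 genes and the 5 related lists, for WT ethanol (left) and KO saline (right) against the shared WT saline libraries. Each point is a gene, filled at an unadjusted p under 0.05; black bars are list medians and the dashed line is the median of all genes tested, 0.06 and 0.04.

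Across the 12 libraries, the genes whose log2 CPM was most like that of Ehmt2 were Grik5 (Pearson r = 0.98), Tmem201 (0.98), Zer1 (0.97), Gga1 (0.97) and Prrt3 (0.97). These values are a description over libraries that share depth, transcript length bias and groups. Its partner Ehmt1 had an r of 0.61 with Ehmt2 over the same libraries. Ehmt1, Ezh1 and Kdm4a were closer to one another, with r of 0.88 for Ehmt1 and Ezh1, 0.92 for Ezh1 and Kdm4a and 0.86 for Ehmt1 and Kdm4a. Setdb1 had an r of 0.82 with Kdm6b and 0.81 with Ezh2. Genes outside the set reached higher r, up to 0.99 with Ehmt1, 0.96 with Ezh1 and 0.98 with Kdm4a.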

How the data were processed

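RNA of 12 samples of somatosensory cortex, 3 per group, was sequenced by the authors, and the groups were taken from the labels. Nothing in the labels says that the 3 samples of a group came from separate litters, so p-values measure the spread between these samples. Reads were filtered by quality, aligned to mm10 with Bowtie2 in TopHat and quantified on RefSeq transcripts in Partek by the authors. The deposited estimated counts include fractions, since shared reads were divided among transcripts. The deposited RPKM values were near-identical when sorted (99.8% of 20504 ranks equal within 0.1% across libraries), so they had been brought to one distribution. Earlier cortex samples were laser dissected and later ones hole-punched, and which library had which is not given in the sources used here.

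Transcripts were summed per symbol, rounded, filtered by expression and TMM-scaled before a 4-mean model was fitted with edgeR 4.0.16 under R 4.3.3 (quasi-likelihood test, two-sided, Benjamini-Hochberg adjustment over 14739 genes); the SE was derived from the F statistic. Exact permutation tests, DESeq2 1.42.0, limma 3.58.1 and other settings served as alternatives. The edgeR steps were also run on simulated counts without the length skew of these libraries, which checks the steps only. Promoter windows were from RefSeq tables of GRCm38.p6. All 9 genes, list members with the 3 smallest p and the 5 genes most like Ehmt2 could be named. The genes and lists were chosen with earlier results of these data known.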

Additional observations from a re-analysis of the deposited data

How the results depend on the processing

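Leaving out libraries changed the number of the 9 genes called at an adjusted p under 0.05 (0 with all libraries). It was 2 for WT ethanol and 3 for KO saline, each against WT saline, without the 2 L libraries (21.5% and 25.3% of all genes). For KO saline it was 0 to 2 when single libraries were left out, 3 without the L libraries and the 2 WT ethanol libraries with Xist, and 1 without the L libraries with length and GC trends removed. The last 2 settings, and leaving out the WT ethanol libraries with Xist or WT saline 1 and 13, were chosen after seeing the data. The shares of all genes called in the settings with calls are given above, and the cause was not tested.

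With length and GC trends removed, the sign changed with log2 fold changes of Ehmt2 -0.29, Suv39h1 -0.037, Setdb1 -0.41, Kdm6b -0.29 for WT ethanol versus WT saline, and Ehmt2 -0.17, Setdb1 -0.036 for KO saline versus WT saline. Without WT saline 1 and 13, the sign changed with log2 fold changes of Ehmt2 -0.66, Setdb1 -0.39, Kdm6b -1.06 for WT ethanol versus WT saline, and Ehmt2 -0.52, Kdm6b -0.54 for KO saline versus WT saline. Without the L libraries and with those trends removed, the sign changed with log2 fold changes of Ehmt2 -0.20, Suv39h1 -0.050, Setdb1 -0.17 for WT ethanol versus WT saline, and Ehmt2 -0.075 for KO saline versus WT saline, and Ehmt2 -0.0088 for KO ethanol versus KO saline. For single transcripts, the sign changed with log2 fold changes of Ehmt1 -0.13 for WT ethanol versus WT saline, and Suv39h1 0.35 for KO saline versus WT saline, and Ehmt2 -0.23 for KO ethanol versus KO saline, and Ehmt2 -0.81 for Genotype by Treatment interaction. In limma on log2(RPKM + 1), the sign changed with log2 fold changes of Setdb1 -0.15, Ezh2 -0.25 for WT ethanol versus WT saline, and Ehmt2 -4.6e-05 for Genotype by Treatment interaction. In limma on log2(RPKM + 0.1), the sign changed with log2 fold changes of Setdb1 -0.17, Ezh2 -0.36 for WT ethanol versus WT saline, and Ehmt2 -0.0091 for Genotype by Treatment interaction. Without the WT ethanol libraries with Xist, the sign changed with log2 fold changes of Setdb1 -0.40, Ezh2 -0.60 for WT ethanol versus WT saline. Without the Xist and L libraries, the sign changed with log2 fold changes of Setdb1 -0.11, Ezh2 -0.65 for WT ethanol versus WT saline, and Ehmt2 -0.31 for Genotype by Treatment interaction. Without TMM, the sign changed with log2 fold changes of Suv39h1 0.21, Suv39h2 0.23 for KO saline versus WT saline, and Ehmt2 -0.16 for Genotype by Treatment interaction. With at least 10 counts in every library, the sign changed with log2 fold changes of Ehmt2 -0.0069 for Genotype by Treatment interaction. With the name letter as covariate, the sign changed with log2 fold changes of Ehmt2 -0.32 for Genotype by Treatment interaction. Without the L libraries, the sign changed with log2 fold changes of Ehmt2 -0.32 for Genotype by Treatment interaction. These sign changes were sought in 25 results only. They take in every gene of the set for WT ethanol and KO saline against WT saline, and only some genes elsewhere. Over all alternatives, results outside the 25 also crossed 0. Among them, Kdm6b ran from -2.21 to 0.78 for the interaction and from -1.13 to 0.93 for KO ethanol versus WT ethanol. For KO ethanol versus KO saline, Ehmt1 ran from -0.43 to 0.24 and Kdm4a from -0.28 to 0.21.

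With single libraries left out, the following log2 fold changes crossed 0 among the same 25 results. For WT ethanol versus WT saline the ranges were -0.36 to 0.60 (Ehmt2), -0.092 to 0.48 (Suv39h1) and -0.20 to 0.39 (Setdb1). In that comparison they were also -0.58 to 0.56 (Ezh2) and -0.21 to 1.94 (Kdm6b). For KO saline versus WT saline they were -0.23 to 0.74 (Ehmt2) and -0.44 to 0.13 (Suv39h1). For Ehmt2 they were -0.009 to 0.45 in KO ethanol versus KO saline and -0.37 to 0.58 in the interaction.

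No paired analysis was possible because the groups share no library number. Depth limits KO ethanol 12 most, where the 9 genes rest on 0 to 91 counts.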
